A study of Mus musculus with 5 samples.

Results

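Hairpins against the same transcript were compared through the 2 arrays of E14 mouse embryonic stem cells that carried shRNA3387 or shRNA2863, out of 5 arrays in the series. The arrays were chosen by their labels, and the value with shRNA2863 was subtracted from the value with shRNA3387 for every gene. The E14 array with a scrambled hairpin served only as the reference level that shows which hairpin array had left it. E14 cells had been grown without feeder cells, infected with lentivirus carrying the scrambled hairpin, shRNA3387 or shRNA2863, and collected once puromycin selection had run for 4 days. J1 cells, another established stem cell line, were kept on feeder cells from mouse embryos and collected 4 days after control siRNA or Tet1 siRNA was transfected. No group was left untreated, the Tet1 gene itself was intact in all groups, and the labels do not say whether the selected cells were a pool or a clone. Each group holds 1 array, so no difference below has a replicate check and no value carries an error.

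Tet1 is a dioxygenase that converts 5-methylcytosine in DNA to 5-hydroxymethylcytosine and is abundant in mouse embryonic stem cells. Its zinc-finger CXXC domain binds DNA rich in CpG, and the enzyme is known at promoters with many CpG sites and at enhancers. A hairpin lowers the mRNA without removing the gene, and different hairpins against 1 mRNA share its loss but not the other transcripts they may bind. A readout that follows the depth of the loss would be ordered as scramble, weaker hairpin, stronger hairpin, whereas a readout seen with 1 hairpin would stand apart on that array only.

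The values are log2 summaries of probe sets, the groups of short oligonucleotides that measure 1 transcript on the array. A difference of 1 is thus a 2-fold difference. The brightest of a gene's probe sets stood for it, and a gene was kept if it exceeded the 40th percentile of all probe sets, the filter level, on at least 1 of the 5 arrays. This left 13619 of 18193 genes. The filter level was 3.12 with scramble, 3.05 with shRNA3387 and 3.09 with shRNA2863. All 7 markers of embryonic stem cells (Pou5f1, Sox2, Nanog, Zfp42, Dppa5a, Utf1 and Fgf4) lay above it on the 3 E14 arrays, at 8.85 or higher. The hairpin arrays correlated at 0.996 over probe sets and held identical values in 2.16% of them. The scramble array stood apart from both in its array controls: the 12 poly-A spike probe sets had a median of 5.54 with scramble, 6.31 with shRNA3387 and 6.06 with shRNA2863, and 18S ribosomal RNA a median of 11.26, 9.75 and 10.13. Between the hairpin arrays the spikes differed by a median of -0.01. The hairpin difference does not use the scramble array, but every statement on which hairpin left the reference level does, and its part in them was not tested.

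Among the E14 arrays Tet1 was lowest with shRNA3387. Its brightest probe set read 10.95 with scramble, 10.06 with shRNA2863 and 9.24 with shRNA3387, so 54.0% of the scramble level was left with the first hairpin and 30.6% with the other. The hairpin difference was -0.82, or 1.77-fold. Its other measured probe sets had the same order. The second read 8.74, 7.56 and 6.34 on those arrays, with 44.1% and 18.9% left and a hairpin difference of -1.22. The third read 6.86, 5.85 and 5.06, a difference of -0.79, and the fourth lay near 2.25 on all arrays, under the filter level. In J1 cells it stood at 10.85 in the control and 8.31 after Tet1 siRNA for the brightest probe set, which left 17.2%, and the third probe set had 34.9% left. The depletion with shRNA3387 was therefore deeper than with shRNA2863 in each of the 3 measured probe sets, but Tet1 did not reach a 2-fold difference between the hairpins in the brightest.

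**Figure D1:**
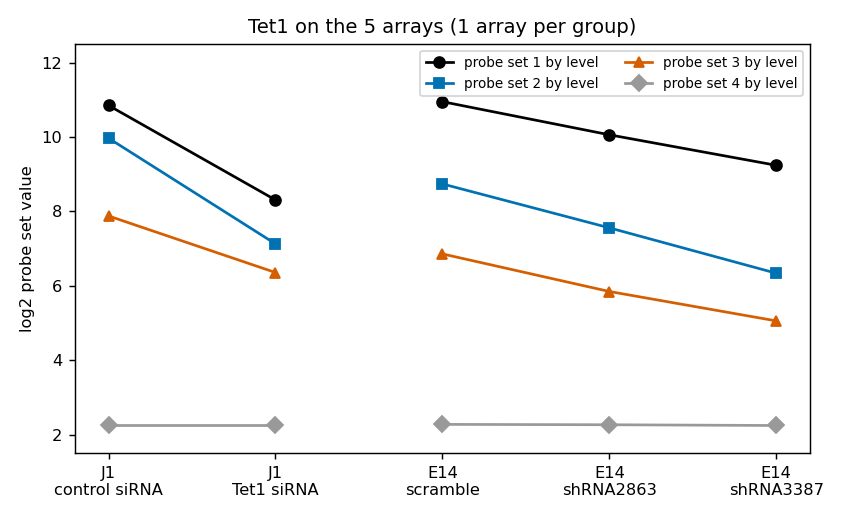
Log2 values of the 4 Tet1 probe sets (vertical axis), ranked by level, on the 5 arrays (horizontal axis), with 1 array per group; lines join arrays of the same cell line. In E14 cells the upper 3 probe sets step down from scramble to shRNA2863 to shRNA3387, from 10.95 to 10.06 to 9.24 in the brightest, and the fourth stays near 2.25.

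The other enzymes of the 5-hydroxymethylcytosine pathway and of DNA methylation differed little between the hairpins. Tet2 read 8.38 with scramble, 8.19 with shRNA3387 and 8.21 with shRNA2863, a hairpin difference of -0.02, and in J1 cells 8.03 with control and 6.90 with Tet1 siRNA. Tet3 was under the filter level. Of the 17 kept genes of the list of Tet enzymes and DNA methylation machinery, 0 were 1.5-fold higher with shRNA3387 and 2 were 1.5-fold lower (11.8%, where 2.11% of all kept genes were). These were Tet1 itself and the methyl-CpG binding protein Mbd2, which read 5.70 with scramble, 5.67 with shRNA3387 and 6.33 with shRNA2863. For Mbd2 the departure was thus on the array of the weaker hairpin, and its other probe set differed by -0.18. The de novo methyltransferase Dnmt3b read 11.49, 12.02 and 11.62 and its cofactor Dnmt3l 10.74, 10.71 and 10.16 in the order scramble, shRNA3387, shRNA2863.

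Between the hairpin arrays, 90 genes were at least 2-fold higher with shRNA3387 (0.661% of the 13619 kept genes) and 47 at least 2-fold lower (0.345%), together 137 (1.01%). Their bounds are set by the threshold: 41 more genes lay between 0.9 and 1 above 0 on the log2 scale and 27 as far below it. At 1.5-fold the counts were 481 higher (3.53%) and 288 lower (2.11%). The differences had an SD of 0.287 over the kept genes, 95% of them lay between -0.55 and 0.66, and 79.2% were within 0.3 of 0. Both hairpin arrays read above their filter level for 119 of the 137 genes, and the other 18 were under it on 1 of the pair. Of the 54 genes with further kept probe sets, all further ones had the same sign in 38 and none had it in 12. Median differences by chromosome ran only from -0.02 to -0.01 over 20 chromosomes.

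Some of the genes with the largest excess under shRNA3387, among them Fgf5, Slc35d3, Pdzrn3 and Cnr1, were near or under the filter level on the other E14 arrays. Fgf5, a secreted growth factor switched on as naive stem cells enter the formative epiblast state, read 2.91 with scramble, 2.89 with shRNA2863 and 6.65 with shRNA3387. It was also under the filter level in J1 cells, at 2.37 and 2.40. Its difference of 3.76 was the largest of all, 13.5-fold as measured and at least 11.8-fold against the filter level of the shRNA2863 array. Slc35d3, a nucleotide sugar transporter relative, read 2.66, 2.63 and 5.66 in the same order, at least 5.94-fold by the same bound. Pdzrn3, a PDZ and RING finger protein of synapses and muscle, read 2.95, 2.86 and 4.86, and the cannabinoid receptor Cnr1 3.20, 3.16 and 4.81. In these 4 genes the shRNA2863 and scramble arrays read alike, and only the shRNA3387 array was high. In bulk RNA, fewer cells expressing a gene and less RNA per cell cannot be told apart, so these values do not say whether all cells or some of them carried the transcript.

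The promoter of Fgf5 is shown because Tet1 binds DNA rich in CpG and this gene held the largest hairpin difference. The 250 bases upstream of its start in RefSeq (GRCm38.p6, chr5:98253934-98254183, plus strand, 5′ to 3′) held 24 CpG sites, printed in capitals, where the median over kept genes, taking the richest window of each, was 16.
Fgf5: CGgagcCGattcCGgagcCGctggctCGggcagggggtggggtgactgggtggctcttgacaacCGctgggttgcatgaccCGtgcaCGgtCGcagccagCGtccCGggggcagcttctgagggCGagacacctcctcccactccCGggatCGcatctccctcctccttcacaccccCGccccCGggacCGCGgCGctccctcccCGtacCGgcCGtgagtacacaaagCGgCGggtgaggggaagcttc

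Myb, a transcription factor of blood and other progenitors, was past 2-fold in every kept probe set. It read 4.29 with scramble, 4.50 with shRNA2863 and 6.86 with shRNA3387, and its 3 kept probe sets differed by 1.47 to 2.36. Hes6, a neural bHLH factor, read 7.39, 7.13 and 8.35 and was past 2-fold in both probe sets, as were the peptide hormone Apela (1.0 and 1.01) and Kctd12b (1.09 and 1.78). Single probe sets carried other large differences. Cystm1, a small membrane protein, read 7.74 with scramble, 6.19 with shRNA2863 and 8.60 with shRNA3387, but its other probe set differed by -0.32. The glycolytic aldolase Aldoc read 6.76, 5.86 and 7.69, and its other probe set differed by -0.03. Hes6, Apela and Gstt1 fall outside the rule for named genes and were chosen after their values were seen, as were some of the list members below.

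The genes lower with shRNA3387 included actins, keratins and Sp5. Acta1, skeletal muscle alpha actin, read 7.30 with scramble, 8.27 with shRNA2863 and 5.71 with shRNA3387, 5.90-fold between the hairpins and the largest difference downwards. Sp5, a transcription factor induced directly by Wnt signals, read 6.76, 7.06 and 4.97, and Acta2, smooth muscle actin, 8.62, 8.83 and 7.16. Tbx3, a T-box factor of the naive pluripotency network, read 8.94, 8.95 and 7.54, and both of its probe sets were past 2-fold (-1.41 and -1.43). Krt8, a keratin of simple epithelia, read 9.92, 10.59 and 9.21 and was past 2-fold in 3 of 3 probe sets (-1.39 to -1.31). Its filament partner Krt18 read 9.83, 10.56 and 9.24. The heat shock protein Cryab (4.72, 5.41 and 3.50) and the receptor Tnfrsf19 (4.65, 6.17 and 4.38) had another probe set each, which differed by -0.01 in both cases.

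**Figure D2:**
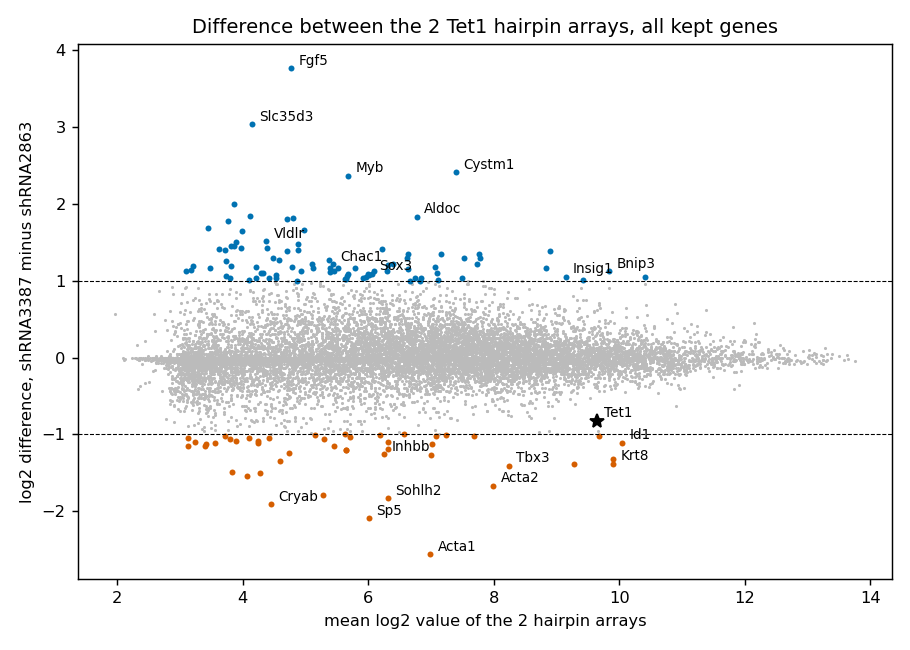
Log2 difference of shRNA3387 minus shRNA2863 (vertical axis) against the mean log2 value of both hairpin arrays (horizontal axis) for the 13619 kept genes, 1 point per gene. The 90 genes at least 2-fold higher are blue and the 47 at least 2-fold lower are orange, past the dashed lines; Fgf5 stands highest at 3.76, Acta1 lowest at -2.56, and Tet1 (star) lies at -0.82, inside the lines.

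A limma fit with terms for cell system, Tet1 depletion and hairpin called 0 genes between the hairpins after Benjamini-Hochberg adjustment, with a lowest adjusted p of 1. At an unadjusted p under 0.05 it listed 509 genes (3.74%), 267 higher and 242 lower. Its spread came from 1 residual degree of freedom, the disagreement between the J1 effect and the mean E14 effect, and not from replicates. The fit drew each gene's spread toward a trend over all kept genes, weighted as 2.35 degrees of freedom. The SEs below include that step. In this fit Acta1 differed by -2.56 with an SE of 0.221 and Fgf5 by 3.76 with an SE of 0.765, with limma's unadjusted p at 0.000812 and 0.0124 and both adjusted p at 1. Tet1 differed by -0.82 with an SE of 0.535 (limma, unadjusted p = 0.214, adjusted p = 1).

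The scramble array was then used to see which hairpin had left the reference level, taking a value within 0.3 of scramble as unmoved. The classes share that array and follow in part from the 2-fold threshold, so their sizes are a description. Of the 137 genes, 45 (32.8%) differed from scramble with shRNA3387 alone, 34 upwards and 11 downwards. In this class a response to the deeper loss and an effect of that hairpin cannot be told apart. With shRNA2863 alone 32 (23.4%) did: 14 of these were higher with shRNA3387 because shRNA2863 was below scramble, and 18 were lower because shRNA2863 was above it. Only 7 genes (5.11%) were graded in the order of Tet1, with both hairpins on the same side of scramble and shRNA3387 farther. After median centring there were 13 graded genes, and 3 where 0.5 counted as unmoved. In 5 (3.65%) the weaker hairpin was farther, and in 48 (35.0%) the hairpins lay on opposite sides. Among the 769 genes that differed 1.5-fold (5.65%), 64 were graded in the order of Tet1, 327 differed with shRNA3387 alone, 253 with shRNA2863 alone, 17 in the reverse order and 108 on opposite sides. Over all kept genes, 62.8% were unmoved with both hairpins and 8.63% were graded.

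The 7 graded genes were all higher with the deeper depletion. Sox3, a transcription factor of epiblast and neural progenitors, had the clearest order. It read 3.73 with scramble, 5.52 with shRNA2863 and 6.61 with shRNA3387, and each step was past 2-fold. As the median over all its probe sets the hairpin difference of Sox3 was 0.54, but no other probe set of it passed the filter level on any array. The phosphodiesterase Pde5a read 3.81, 4.18 and 5.58, the calcitonin receptor Calcr 5.13, 5.52 and 6.65, and Tlcd3b, a protein of lipid metabolism, 4.22, 4.81 and 5.97. The other probe sets of Pde5a and Tlcd3b differed by only 0.04 and 0.32. The vesicle GTPase Rab20 (2.55, 3.02 and 4.42) and the synaptic adhesion protein Lrfn4 (2.08, 2.90 and 4.06) were under the filter level on both arrays with more Tet1. The glutathione transferase Gstt1 read 4.82, 5.12 and 6.14. In J1 cells Rab20 and Lrfn4 were under the filter level on both arrays. Of the other 5 genes, 4 stayed within 0.3 of their control with Tet1 siRNA, among them Sox3 at 5.01 and 5.14, and Calcr differed by -0.32.

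Among the 64 genes graded at 1.5-fold, 51 were above scramble and 13 below. Tet1 itself is 1 of the 13. The imprinted growth factor Igf2 read 7.22 with scramble, 6.71 with shRNA2863 and 5.93 with shRNA3387, and the fibril collagen gene Col1a1 4.61, 3.89 and 3.30. The other probe set of Col1a1 differed by -0.01 between the hairpins. Above scramble, the zinc finger factor Sall2 read 6.75, 7.33 and 8.32 and the Wnt antagonist Nkd2 3.62, 4.01 and 4.84, though the 3 other probe sets of Nkd2 differed by -0.05 to -0.01. No J1 array enters the E14 differences, though J1 values helped choose each gene's probe set and the kept genes. In J1 cells 7 of the 64 genes (10.9%) differed 1.5-fold to the same side and 4 to the opposite side. Another 36 stayed within 0.3, 3 of which were under the filter level on both J1 arrays. Of all kept genes, 2.91% were 1.5-fold higher and 6.09% were 1.5-fold lower with Tet1 siRNA. The 7 include Tet1, which the siRNA targets, so its fall was set by the design. The others were Galnt7, Tmem164, Ptpn13, Gpsm1, Acvr1 and Crym, listed after their values were seen. Between the hairpins the other probe sets of Galnt7 differed by only -0.01 and 0.04 and that of Gpsm1 by -0.01. Those of Tmem164 differed by 0.38 and 1.57, and Crym had no other kept probe set. Acvr1, a type I receptor for bone morphogenetic proteins, read 4.89, 5.57 and 6.44 in E14 cells and 5.44 and 6.07 in J1 cells, but its other probe sets differed by only -0.01 and 0.06 between the hairpins. Ptpn13, a protein tyrosine phosphatase, read 5.88, 6.74 and 7.55 in E14 cells and 5.73 and 6.49 in J1 cells, and its other probe set differed by -0.02 between the hairpins.

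**Figure D3:**
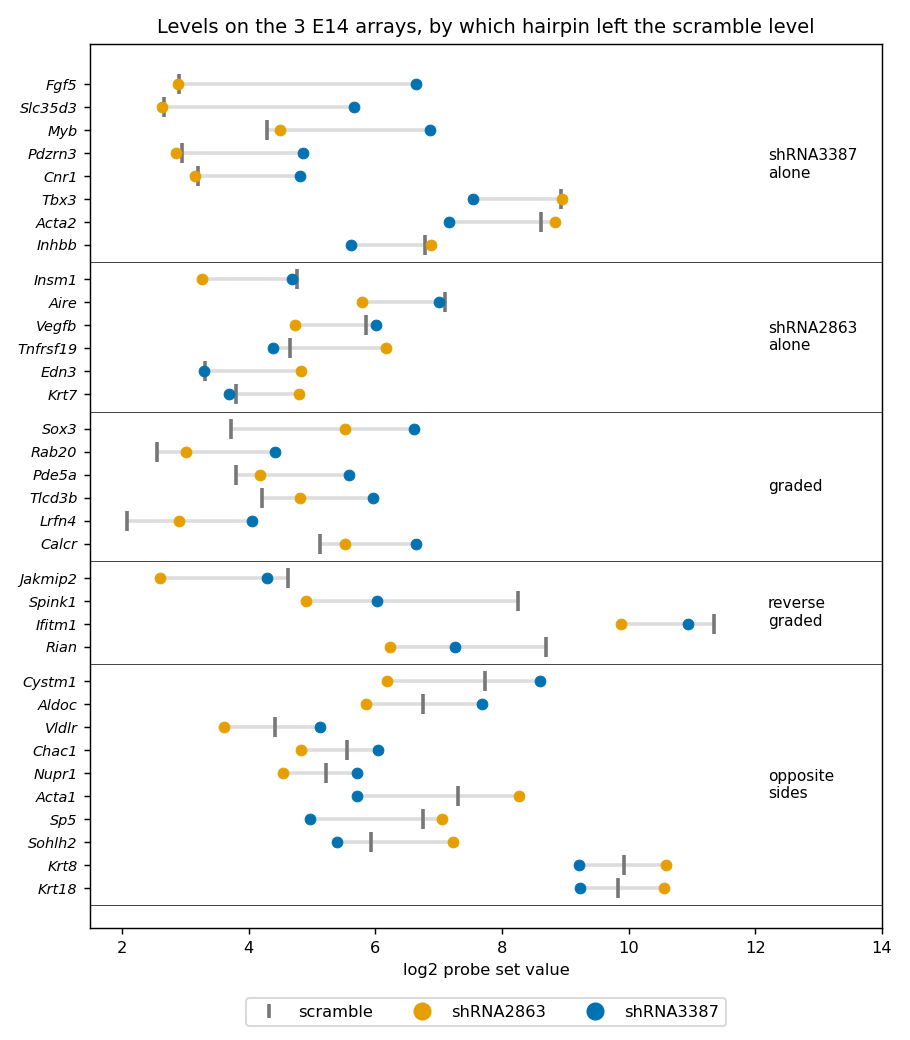
Log2 values on the 3 E14 arrays (horizontal axis) for 34 genes at least 2-fold different between the hairpins, in 5 classes by which hairpin left the scramble level (grey bar; shRNA2863 orange, shRNA3387 blue; 1 array each). In the first class only the blue points stand away from the bar, in the second only the orange, and Sox3 shows the order 3.73, 5.52, 6.61 among the graded genes.

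With shRNA2863 alone, the weaker hairpin, the transcription factor Insm1 of endocrine and neural progenitors read 3.27 where scramble read 4.76 and shRNA3387 4.69. Its other probe set differed by 0.11. Aire, a regulator of self-antigen expression, read 5.79 with shRNA2863 against 7.10 with scramble and 7.01 with shRNA3387, and the angiogenic factor Vegfb 4.74 against 5.85 and 6.01. Above scramble with shRNA2863 alone were the peptide endothelin 3 (Edn3; 4.83 against 3.31 and 3.29), the testis cytochrome Cyct (6.24 against 5.23 and 5.04), the keratin Krt7 (4.80 against 3.81 and 3.69) and the reproductive homeobox gene Rhox13 (6.03 against 4.95 and 4.88). For these genes the array with more Tet1 left stood apart, and the array with less Tet1 read as scramble did. In the reverse order, the trypsin inhibitor Spink1 read 8.26 with scramble, 6.02 with shRNA3387 and 4.90 with shRNA2863. The interferon-inducible membrane protein Ifitm1 read 11.35, 10.93 and 9.88 and the imprinted noncoding RNA Rian 8.69, 7.26 and 6.23. Both were thus farther from scramble with the weaker hairpin.

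Gene lists were then set beside the same values over all kept genes, whose median hairpin difference was -0.01, with 5450 genes above 0 and 7866 below. The lists were drawn up with earlier results of these data known, and their counts are a description. The formative and primed epiblast list had a median of 0.35 over 30 kept genes, 18 above 0 and 12 below. Past 1.5-fold were 8 higher (26.7%, where 3.53% of all kept genes were) and 1 lower. Besides Fgf5, Sox3 and Sall2, these included Pou3f1 (Oct6), a POU factor of the primed state, which read 8.82 with scramble, 8.94 with shRNA2863 and 9.85 with shRNA3387 and differed by 1.62 in its other probe set. Lef1, a nuclear partner of beta-catenin, read 8.07, 8.28 and 8.90 (1.20 in its other probe set). Fgf15 (6.19, 5.35 and 6.15) and the zinc finger factor Zic5 (8.64, 8.15 and 8.74) were higher with shRNA3387 only because shRNA2863 lay below scramble. The single member lower was Krt18. Of the 9 members past 1.5-fold, 3 differed from scramble with shRNA3387 alone, 2 with shRNA2863 alone, 2 were graded and 2 lay on opposite sides. Against scramble, 8 members were 1.5-fold higher with shRNA3387 (5.39% of all kept genes were) and 2 with shRNA2863 (3.63%), and both counts use the same scramble array. In J1 cells with Tet1 siRNA 10 of the 30 were 1.5-fold lower and 2 higher, with a median of -0.28. Of 31 listed genes on the array, 27 lay above the filter level with scramble, 29 with shRNA3387 and 27 with shRNA2863.

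The naive pluripotency network stood close to all genes on the same arrays. In the core and naive pluripotency list the median was -0.04 over 33 kept genes. Of all kept genes 3.53% were 1.5-fold higher and 2.11% lower, and in the list 1 gene was higher (3.03%) and 2 lower (6.06%). These were Tbx3, the junction protein Jam2 (8.36 with scramble, 8.48 with shRNA2863 and 7.78 with shRNA3387) and, upwards, the RNA-binding protein Lin28a (10.50, 9.39 and 10.29), which was low with shRNA2863. The naive factors Tfcp2l1 (8.23, 8.37 and 7.86) and Klf2 (10.04, 9.98 and 9.54) stood lower with shRNA3387 by less than 1.5-fold. In J1 cells with Tet1 siRNA 14 of the 33 were 1.5-fold lower and 0 higher, where 6.09% and 2.91% of all kept genes were. Wnt targets were split: of 20 kept genes 2 were 1.5-fold higher (Lef1 and Nkd2) and 2 lower (Sp5 and Tnfrsf19), 10.0% each way. Of the Nodal, Lefty and Activin list, only Inhbb, an activin subunit, was past 2-fold among 17 kept genes. It read 6.78 with scramble, 6.88 with shRNA2863 and 5.62 with shRNA3387, and 7.58 and 5.41 with control and Tet1 siRNA in J1 cells, so it was low on both arrays with the least Tet1 of their system; as the median over its probe sets the hairpin difference was -0.64.

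The integrated stress response and amino acid genes, which Atf4 switches on when translation initiation factor eIF2 is phosphorylated, had a median of 0.35 over 32 kept genes, and 24 of the 32 stood above 0 (75.0%). Past 1.5-fold were 6 higher (18.8%) and 0 lower, and past 2-fold 4 higher. The lipoprotein receptor Vldlr read 4.42 with scramble, 3.62 with shRNA2863 and 5.13 with shRNA3387. Chac1, an enzyme that degrades glutathione, read 5.55, 4.83 and 6.04, and the stress-induced chromatin protein Nupr1 5.22, 4.54 and 5.71. The secreted glycoprotein Stc2 read 5.55, 5.44 and 6.49, with 0.53 and 0.59 in its other probe sets, and the stress factor Atf3 was graded at 3.57, 4.24 and 4.88. Against scramble the list's median was 0.00 with shRNA3387 and -0.31 with shRNA2863, so the list as a whole was level with scramble on the first array and below it on the other. In J1 cells with Tet1 siRNA 15 of the 32 were 1.5-fold lower (6.09% of all kept genes were), with a median of -0.49. Chac1 read 7.56 and 5.99 with control and Tet1 siRNA.

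The promoters of 4 of these genes are shown because they share the letters TGATGCAA, the core of the element that Atf4 and its partners bind. Either strand was searched (the other reads TTGCATCA, in capitals below) in the 250 bases upstream of each RefSeq start (GRCm38.p6). The windows are chr2:119350992-119351241 (plus strand), chr7:126625471-126625720 (minus strand), chr19:27216770-27217019 (plus strand) and chr1:191183334-191183583 (minus strand), each written 5′ to 3′ along the gene. The match starts 193 bases upstream of the start in Chac1, 110 in Nupr1, 200 in Vldlr and 110 in Atf3.
Chac1: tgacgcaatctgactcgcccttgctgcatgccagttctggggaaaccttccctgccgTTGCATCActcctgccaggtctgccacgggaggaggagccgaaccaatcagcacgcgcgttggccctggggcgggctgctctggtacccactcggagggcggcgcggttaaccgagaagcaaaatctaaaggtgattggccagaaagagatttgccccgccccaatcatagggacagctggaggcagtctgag
Nupr1: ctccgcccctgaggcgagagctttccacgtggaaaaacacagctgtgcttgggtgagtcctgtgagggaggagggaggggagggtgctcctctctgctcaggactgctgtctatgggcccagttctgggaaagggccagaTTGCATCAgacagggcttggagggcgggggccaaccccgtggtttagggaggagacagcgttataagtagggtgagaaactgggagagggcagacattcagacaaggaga
Vldlr: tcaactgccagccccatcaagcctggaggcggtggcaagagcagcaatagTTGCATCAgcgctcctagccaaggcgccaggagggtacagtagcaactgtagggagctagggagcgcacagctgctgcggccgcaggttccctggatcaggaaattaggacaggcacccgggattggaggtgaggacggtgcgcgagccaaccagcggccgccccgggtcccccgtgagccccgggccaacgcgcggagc
Atf3: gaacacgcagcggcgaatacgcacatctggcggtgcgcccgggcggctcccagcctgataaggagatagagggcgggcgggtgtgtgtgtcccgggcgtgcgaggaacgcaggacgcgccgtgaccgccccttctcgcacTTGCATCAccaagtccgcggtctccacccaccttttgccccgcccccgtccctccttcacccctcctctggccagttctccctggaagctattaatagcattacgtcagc

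These letters were found in 0.791% of 32851 promoter windows of this length and in 0.702% of the 10966 kept genes with a window. Of 27 listed genes with a window, 6 held them (22.2%). The list is of genes that Atf4 drives, so that share does not bear on the hairpin difference. The other matches were the alanyl-tRNA synthetase Aars, with a hairpin difference of 0.18, and the cystine transporter Slc7a11, with 0.06. The 6 genes with the letters had hairpin differences from 0.06 to 1.51, with a median of 0.90. The median of the 21 without them was 0.22. This split lies within a list drawn up with earlier results known, and it is a description. Of the 68 genes with a window that were 2-fold higher, 4 held the letters (5.88%), and of the 36 that were 2-fold lower 1 did (2.78%). Vldlr, Chac1 and Nupr1, printed above, are among those 4, so that share is not separate from the list. At 1.5-fold higher the share was 7 of 373 (1.88%), with the 4 printed genes among the 7. A match in this window is a description and does not show binding.

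Glycolysis and hypoxia genes had a median of 0.20 over 30 kept genes, of which 24 stood above 0 (80.0%). Past 1.5-fold were 7 higher (23.3%, where 3.53% of all kept genes were) and 0 lower. Besides Aldoc, the oxygen sensor Egln3 read 5.68 with scramble, 5.72 with shRNA2863 and 6.92 with shRNA3387 (0.68 in its other probe set). The mitophagy receptor Bnip3 read 10.05, 9.28 and 10.40. The lactate exporter Slc16a3 read 6.60, 5.86 and 6.51, and the liver-type phosphofructokinase Pfkl 9.04, 8.42 and 9.02; in both, shRNA2863 was the array that left the scramble level. Of the 7 members past 1.5-fold, 3 differed with shRNA3387 alone, 2 with shRNA2863 alone and 2 lay on opposite sides. Against scramble the list's median was 0.11 with shRNA3387 and -0.08 with shRNA2863. In J1 cells with Tet1 siRNA its median was -0.15, with 1 member 1.5-fold higher and 4 lower.

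Germline genes that DNA methylation keeps silent in somatic cells had a median of -0.29 over 23 kept genes (-0.06 without the filter on low values), and 19 of the 23 stood below 0 (82.6%). Of all kept genes 57.8% stood below 0. Past 1.5-fold were 7 lower (30.4%, where 2.11% of all kept genes were) and 0 higher. The oogenesis factor Sohlh2 read 5.94 with scramble, 7.23 with shRNA2863 and 5.40 with shRNA3387, and the synaptonemal complex protein Syce1 7.25, 7.75 and 6.74. Taf7l, a testis TFIID subunit, read 4.30, 5.35 and 4.40, and Dazl, a germ cell RNA-binding protein, 6.40, 6.61 and 5.84. Some members were above scramble on both arrays, and farther with the weaker hairpin: Dmrt1, a gonadal factor, read 6.64, 8.25 and 7.55, and Mael, a piRNA factor, 7.60, 8.85 and 8.26. Against scramble the median was -0.06 with shRNA3387 and 0.21 with shRNA2863, and the 7 genes fell into 4 classes, none of them graded in the order of Tet1. In J1 cells 10 of the 23 were 1.5-fold lower with Tet1 siRNA, where 6.09% of all kept genes were. The promoter of Sohlh2, the member with the largest difference, is shown for its CpG sites (chr3:55181794-55182043, plus strand, GRCm38.p6, 5′ to 3′); it held 14, in capitals, below the median of 16 over kept genes.
Sohlh2: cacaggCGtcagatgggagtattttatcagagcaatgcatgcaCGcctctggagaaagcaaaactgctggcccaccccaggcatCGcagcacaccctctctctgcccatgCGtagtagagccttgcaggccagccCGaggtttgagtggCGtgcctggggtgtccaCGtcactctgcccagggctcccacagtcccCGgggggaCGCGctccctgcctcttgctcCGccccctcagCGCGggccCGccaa

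Actin and muscle genes driven by serum response factor had a median of -0.14 over 29 kept genes. Of these 25 stood below 0 (86.2%, where 57.8% of all kept genes did) and 4 were past 1.5-fold lower (13.8%, where 2.11% were). Besides Acta1 and Acta2, the actin-binding protein Tagln read 10.12 with scramble, 10.15 with shRNA2863 and 9.50 with shRNA3387, and the matrix protein Thbs1 6.19, 6.83 and 6.23. Serum response factor binds the CArG box. A search of both strands found it in 1.47% of all promoter windows and in 9 of 22 listed genes with one (40.9%). The list is of genes this factor drives, so that share does not bear on the hairpin difference. Of the 225 genes with a window that were 1.5-fold lower, 3 held the box (1.33%), where 1.4% of kept genes did. Of the 36 that were 2-fold lower, 1 held the box (2.78%). Acta1 holds it in the 250 bases upstream of its start (chr8:123894776-123895025, minus strand, GRCm38.p6), printed 5′ to 3′ with the box in capitals, which starts 73 bases upstream.
Acta1: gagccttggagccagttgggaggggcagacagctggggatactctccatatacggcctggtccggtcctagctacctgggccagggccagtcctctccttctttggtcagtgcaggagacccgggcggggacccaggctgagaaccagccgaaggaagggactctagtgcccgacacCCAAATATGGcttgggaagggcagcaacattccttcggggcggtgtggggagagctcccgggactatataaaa

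Markers of fibroblasts, which also express smooth muscle actin, stood beside this result as follows. Leaving out Acta2, which that list shares, 24 of 28 genes of the fibroblast and mesenchymal matrix list on the array were above the filter level with scramble, 23 with shRNA3387 and 23 with shRNA2863. Their summed levels were 11.72, 11.47 and 11.52 on the log2 scale. The matricellular marker Postn was under the filter level on all arrays. Col1a1 was among the graded genes in its brightest probe set, while its other one differed by -0.01 between the hairpins. Between the hairpins the other fibroblast markers Col1a2, Col3a1 and Thy1 differed by -0.02, -0.43 and -0.35. The part of fibroblasts in the actin difference was not tested.

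Of the trophectoderm and placenta list, 5 of 24 kept genes were past 1.5-fold lower (20.8%) and 1 higher, with a median of -0.07. Of all kept genes 2.11% were 1.5-fold lower and 3.53% higher. The 5 were Krt8, Krt18, Krt7, the placental protein Plac1 (4.04 with scramble, 4.54 with shRNA2863 and 3.65 with shRNA3387) and the keratin Krt19 (7.84, 7.72 and 6.93). The trophoblast factor Hand1 was the one higher (3.61, 3.18 and 3.89). The defining trophectoderm factors Cdx2 and Elf5 were under the filter level on all 5 arrays, and Eomes read 6.43, 7.10 and 7.14. Summed levels of the list were 12.32 with scramble, 12.04 with shRNA3387 and 12.61 with shRNA2863. In J1 cells Krt8 read 11.84 and 12.25 and Krt18 11.75 and 12.46 with control and Tet1 siRNA, the opposite direction to shRNA3387.

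p53 targets stood lower by small steps. Their median was -0.20 over 27 kept genes, 22 of which were below 0 (81.5%, where 57.8% of all kept genes were). Past 1.5-fold lower were 3 (11.1%, where 2.11% of all kept genes were). These were the cyclin Ccng1 (11.15 with scramble, 11.22 with shRNA2863 and 10.59 with shRNA3387), the kinase Plk2 (9.10, 9.18 and 8.55) and the membrane protein Perp (9.10, 9.24 and 8.61). In each of the 3 the departure from scramble was with shRNA3387 alone, by -0.56, -0.55 and -0.49. Both further probe sets of Ccng1 had the same sign between the hairpins (-0.73 and -0.39). Against scramble, 0 of the 27 were 1.5-fold higher or lower with either hairpin. The cell cycle inhibitor Cdkn1a read 8.82, 9.15 and 8.57. In J1 cells the list's median was 0.09.

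Of the remaining lists, some held no or few genes past 1.5-fold. None of the 35 kept Polycomb and Trithorax genes or the 20 kept primitive endoderm genes was past 1.5-fold, and of 42 genes of DNA replication and mitosis 1 was. Of 32 imprinted genes, 4 were 1.5-fold higher and 3 lower: Rian and the sarcoglycan Sgce (4.95 with scramble, 3.78 with shRNA2863 and 4.55 with shRNA3387) were farther from scramble with the weaker hairpin, Igf2 with the stronger, and Dlk1 (4.99, 5.74 and 5.01) left scramble with shRNA2863 alone. In the interferon list of 25 genes, Ifitm1 and Stat2 (3.61, 2.64 and 3.56) were low with shRNA2863, the latter under the filter level, whereas the oligoadenylate synthetase Oas1a was low with shRNA3387 (7.14, 7.24 and 6.36). Between the hairpins 20 of the 25 stood below 0 (80.0%, where 57.8% of all kept genes did). The list's median was only -0.05, however, and 3 members were 1.5-fold higher with shRNA3387 while 2 were lower. Against scramble 5 were 1.5-fold lower with shRNA3387 (3.36% of all kept genes were) and 3 with shRNA2863 (3.26%), and Xaf1, an interferon-induced regulator of cell death, was lower with both (6.90, 5.70 and 5.38). On the other side 1 was 1.5-fold above scramble with shRNA2863 and 0 with shRNA3387. The list of genes of the two-cell-like state, a rare state that resembles the early embryo, had a median of -0.14 over 9 kept genes. Of the 9, 8 stood below 0 (88.9%, where 57.8% of all kept genes did). Past 1.5-fold were 3 lower (33.3%, where 2.11% of all kept genes were) and 0 higher. These were the arginase Arg2 (4.25, 5.13 and 4.23) and Pramel6 (4.13, 4.76 and 4.02), which left scramble with shRNA2863, and the deubiquitinase Usp17la (6.06, 6.28 and 5.45), which left it with shRNA3387. The neuroectoderm list had 3 of 19 genes 1.5-fold higher (15.8%, where 3.53% of all kept genes were), namely Sox3, Ncam1 and Pax6. Pax6 read 5.33, 3.99 and 4.61 and Ncam1 4.95, 3.67 and 4.55, both below scramble with each hairpin, and Sox1 was under the filter level on all arrays.

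**Figure D4:**
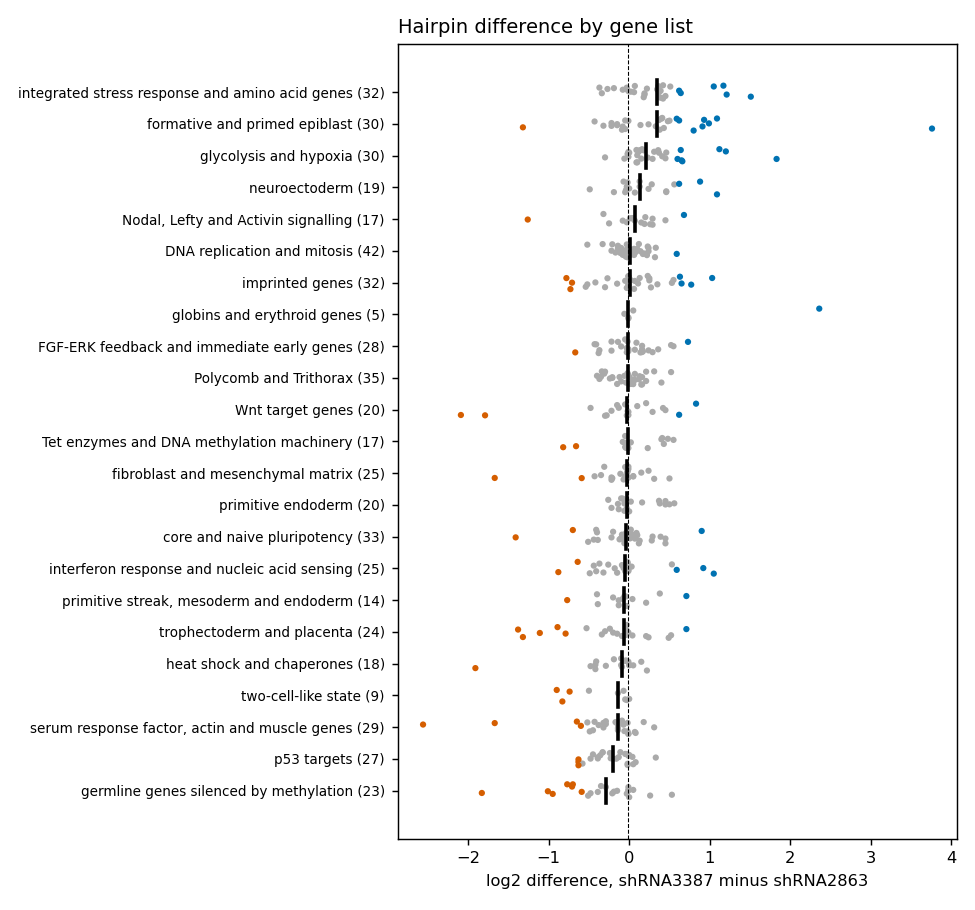
Log2 difference of shRNA3387 minus shRNA2863 (horizontal axis) for the kept members of 23 gene lists (number kept in brackets), 1 point per gene, spread vertically at random within a row; black bars are list medians and the dashed line is the median of all kept genes, -0.01. Points past 1.5-fold are blue (higher) or orange (lower), and list medians run from 0.35 for the stress response and formative lists to -0.29 for the germline list.

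The 137 genes were then read on the J1 arrays, none of which enters the hairpin difference. Across the 13619 kept genes the hairpin difference and the J1 difference had a Pearson r of -0.10 and a Spearman rho of -0.10. Genes are not independent replicates, and each axis rests on 1 pair of arrays. Of the 137 genes, 7 differed 1.5-fold in J1 to the side of shRNA3387 and 27 to the opposite side, where 9.0% of all kept genes differed 1.5-fold either way. For the 90 higher genes the counts were 2 and 20, and for the 47 lower genes 5 and 7. By class, the same and opposite counts were 3 and 6 of the 45 with shRNA3387 alone. With shRNA2863 alone they were 1 and 4 of the 32. They were 3 and 13 of the 48 on opposite sides and 0 and 0 of the 7 graded genes. Where the weaker hairpin was farther they were 0 and 4 of the 5. These sides follow the hairpin difference, not the direction from scramble. With shRNA2863 alone, the opposite side is the one to which shRNA2863 left scramble. The 4 of the 5, Spink1, Ifitm1, Rian and Jakmip2, were below scramble with both hairpins and lower with Tet1 siRNA (-1.84, -1.36, -0.6 and -0.7). Spink1 and Jakmip2 were under the filter level with Tet1 siRNA. 8030474K03Rik was above scramble with both hairpins and differed by 0.13.

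Few of the 137 genes differed in J1 cells to the side of shRNA3387. Inhbb and the glutathione peroxidase Gpx2 were lower on both arrays with the least Tet1: Gpx2, named here after its values were seen, read 5.12 with scramble, 5.35 with shRNA2863 and 4.11 with shRNA3387, and 5.50 and 4.60 in J1 cells. The nuclease Dclre1b read 5.14, 3.81 and 5.61 in E14 cells and 3.36 and 4.65 in J1 cells, but its distance from scramble was mostly with shRNA2863. Aire and Vegfb, low with shRNA2863 alone, were lower with Tet1 siRNA too. With control and Tet1 siRNA Aire read 5.79 and 4.80 and Vegfb 5.54 and 4.31. Of the 32 genes of that class, 22 stayed within 0.3 in J1 cells. Fgf5, Slc35d3, Rab20 and Lrfn4 were under the filter level on both J1 arrays. Myb went the opposite way, from 5.21 with control siRNA to 4.36 with Tet1 siRNA. Line, feeders and method of depletion differ together between the systems and cannot be told apart.

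**Figure D5:**
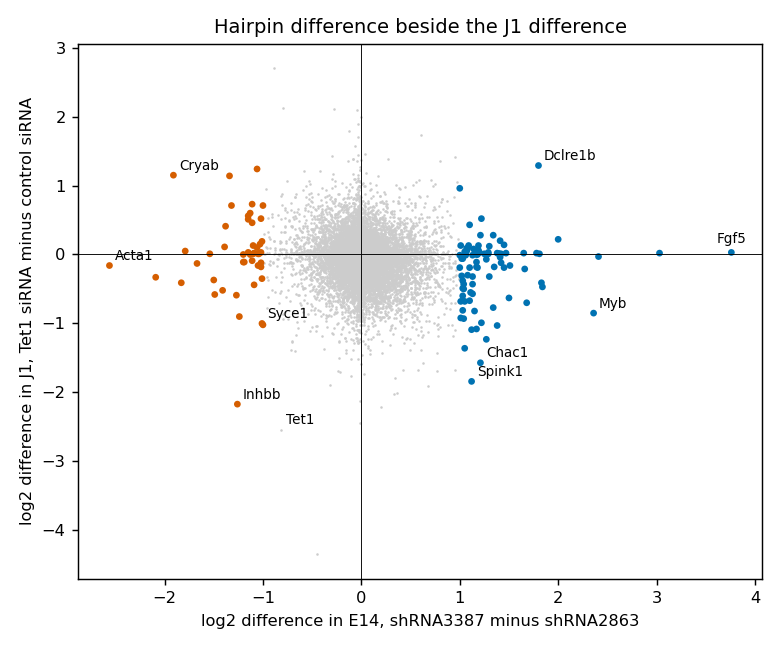
Log2 difference of Tet1 siRNA minus control siRNA in J1 cells (vertical axis) against the hairpin difference in E14 cells (horizontal axis), 1 point per kept gene; blue and orange are the 90 higher and 47 lower genes, and no array is shared between the axes. Fgf5 lies at 3.76 and 0.03, most blue points lie at or below 0 in J1, and Inhbb lies low on both axes at -1.26 and -2.17.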

How the data were processed

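Total RNA of 5 samples, 1 per group, was measured on Affymetrix oligonucleotide arrays. The values the authors deposited are log2 probe set summaries; the log2 scale was inferred from their range of 1.38 to 14.12, and the summary method and normalization were not given in the sources used here. They were used as deposited. Of 45101 probe sets, 64 were array controls and 34958 carried exactly 1 symbol, of which 34754 were matched by Entrez identifier to RefSeq of GRCm38.p6 and 0 symbols changed. The platform's build is not named, so only promoter coordinates, from RefSeq, are printed. Each gene was represented by its probe set of highest mean level.

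With 1 array per group, differences were described by size (2-fold and 1.5-fold), beside limma 3.58.1 in R 4.3.3 (trend, two-sided, Benjamini-Hochberg over 13619 genes, threshold 0.05). On simulated hairpin differences over 13619 genes, that fit called 23, 50, 50 and 49 of 50 genes changed by 1, 2, 3 and 4 on the log2 scale, with 18 false calls. The simulated noise was independent and normal, with variances taken from that fit. These counts therefore do not say what the fit could detect on the real arrays. The number of arrays limits the precision, and the p-values reflect no biological replication.

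The hairpin pair, the 23 gene lists and the naming rule were chosen with earlier results of these data known. Named genes were Tet1 to Tet3, the 15 largest differences each way, the 5 largest each way in each class, and of each list the members past 2-fold and the 4 largest. Other genes named, such as Pou3f1, Dnmt3b, Klf2 and Dmrt1, were chosen after their values were seen, and their single values were not recomputed under the alternatives. Alternatives were other normalizations, filters, probe set rules, thresholds and unmoved steps.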

Additional observations from a re-analysis of the deposited data

Results flagged for a closer look

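The poly-A spike controls, foreign transcripts that measure labelling and enter no comparison above, stood higher on both hairpin arrays than on the scramble array. The median difference over 12 probe sets was 0.82 with shRNA3387 and 0.87 with shRNA2863, and all 12 were higher with each hairpin. Between the hairpins the same probe sets differed by a median of -0.01, from -0.26 to 0.50. Beside them, 18S ribosomal RNA was lower than scramble by a median of -1.68 and -1.15, and Gapdh differed by -0.01 and 0.00. The part of these gaps in the classes that use the scramble array was not tested.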

How the results depend on the processing

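At 1.5-fold the counts were 481 higher and 288 lower, and counting every kept probe set gave 187 higher and 66 lower. Under the other settings there were 65 to 99 genes higher and 34 to 60 lower (78 and 60 after quantile normalization, 99 and 38 after median centring, 65 and 34 with the median over probe sets). The genes that left scramble with shRNA2863 alone were 18 with the median over probe sets and 50 where 0.5 counted as unmoved. The graded genes were 13 after median centring and 3 with the 0.5 step. The Tet1 difference was -1.22 in its second probe set and -1.0 as the median over probe sets. Cyclic loess, chosen after seeing the data, gave 84 higher, 48 lower and 7 graded. Limma called 0 genes under each alternative run, with 314 to 761 at an unadjusted p under 0.05; its lowest adjusted p was 0.778, without a filter.

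For the genes that the naming rule gave, 907 values under an alternative moved by less than 0.287, the SD over kept genes, and 37 by more, each of these under the median over probe sets. There Cryab and Tnfrsf19 fell to -0.01, Pde5a to 0.04, Pdzd2 to 0.06, Tlcd3b to 0.16, Sox3 to 0.54, Inhbb to -0.64, Cystm1 to 1.04 and Fgf5 to 1.88. That median also takes in probe sets under the filter level. Fgf5, Sox3 and Inhbb had no further probe set above it on any array. Why probe sets of the same gene differ was not tested. Among list medians, germline genes moved from -0.29 to -0.06 without a filter and formative genes from 0.35 to 0.24 with the median over probe sets.

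No paired analysis was possible because each group holds 1 array. Leaving out a replicate was likewise not possible. Genes near the filter level are hard to tell from background, and single arrays cannot separate hairpin, culture and array.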

Other observations

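Genes of sterol synthesis and uptake, listed after their values were seen, stood higher with shRNA3387. Their median hairpin difference was 0.38 over 21 kept genes, 18 above 0 and 3 below, with 7 past 1.5-fold higher (3.53% of all kept genes were) and 0 lower. Insig1, the sterol sensor that holds back SREBP processing, read 8.65 with scramble, 8.62 with shRNA2863 and 9.67 with shRNA3387. Dhcr7, which makes cholesterol from its last precursor, read 7.34, 6.98 and 8.01. The lanosterol demethylase Cyp51 was graded at 6.32, 7.06 and 7.71, and so was Msmo1, the next demethylating enzyme, at 8.72, 9.04 and 9.79. The other probe set of Cyp51 differed by 0.9 between the hairpins, but that of Msmo1 by only 0.03. Mmab read 4.26, 3.14 and 4.59, but both of its other probe sets differed by -0.02 to -0.01. Against scramble the list's median was 0.58 with shRNA3387 and 0.11 with shRNA2863, and 20 of the 21 were above scramble with shRNA3387. In J1 cells with Tet1 siRNA it was -0.06.

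The Id genes, which bone morphogenetic proteins induce and which block bHLH factors, were also picked after their values were seen. Id1 read 10.29 with scramble, 10.60 with shRNA2863 and 9.49 with shRNA3387, Id3 9.27, 9.50 and 8.51, and Id2 9.89, 9.81 and 9.46. Other members of that list did not share the direction: Bambi, a decoy receptor, read 7.25, 7.15 and 7.59, Smad7 differed by 0.04, and the median over 13 kept genes was -0.01. In J1 cells Id1 read 10.17 and 10.90 with control and Tet1 siRNA.

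In a list of simple epithelial keratins and their partners, likewise picked afterwards, 6 of 15 kept genes were 1.5-fold lower with shRNA3387 and 0 higher. Of all kept genes 2.11% were 1.5-fold lower. The desmosome protein Dsp read 8.71 with scramble, 9.35 with shRNA2863 and 8.57 with shRNA3387 and the lectin Lgals3 8.95, 8.65 and 7.89, whereas the adhesion genes Epcam and Cdh1 differed by 0.08 and 0.14.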
